A study of Mus musculus with 2 samples.

Results

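The cells described here are the conventional dendritic cells (cDCs) of transplanted mouse hearts, taken as the cells that the deposited annotation classifies as cDCs. They numbered 171 of 4441 cells. The hearts came from Bm12 donors, whose *H2-Ab1* gene (chr17:34257689-34269419, plus strand, GRCm38) encodes an altered MHC class II chain that CD4+ T cells of the C57BL/6 (B6) recipients recognise. Grafts either carried the gene for IL-33, a cytokine kept in the nucleus of stromal cells and released on tissue damage (IL-33+, hearts 1, 2 and 3), or lacked it (IL-33-, hearts 4, 5 and 6), and all were collected on postoperative day 14. The deletion was in the donor heart, so recipient cells that entered either kind of graft came from mice that carry the *Il33* gene. Cells were isolated over density gradients and tagged by heart, and the 6 tagged preparations were sequenced together as 1 single-cell gene expression library, so n is 3 hearts in each group. The ages of the animals are not given in the sources used here.

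Conventional DCs take up antigen in tissues, load it on MHC molecules and carry it to lymph nodes, where they prime naive T cells. They depend on the cytokine receptor FLT3 and are set apart from monocyte-derived cells by the transcription factor ZBTB46. The cDC1 lineage, marked by *Xcr1* and *Clec9a*, is known for presenting captured antigen on MHC class I to CD8+ T cells, and the cDC2 lineage, marked by *Sirpa* and in many tissues by *Cd209a* and *Clec10a*, for presenting it on MHC class II to CD4+ T cells. On maturation either lineage raises the chemokine receptor *Ccr7*, which directs migration to lymph nodes, and the actin-bundling gene *Fscn1*. Plasmacytoid DCs are a separate lineage that also carries FLT3 and is known for type I interferon production.

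The numbers of cDCs were 38, 6 and 44 in IL-33+ hearts 1 to 3 and 48, 9 and 26 in IL-33- hearts 4 to 6, so hearts 2 and 5 rest on few cells. The median number of unique transcript molecules (UMIs) per cDC ranged from 6214 to 7599 over the 6 hearts, and summed UMIs ranged from 49060 in heart 2 to 315700 in heart 4. The groups overlapped in median UMIs. The median share of mitochondrial UMIs was 4.62%, 4.75% and 5.01% in IL-33+ hearts and 4.08%, 3.78% and 4.02% in IL-33- hearts, with no overlap, and its part in the differences between grafts given below was not tested. Barcodes were unique, with 0 shared between hearts. The intervals on shares below are exact binomial 95% intervals and cover counting error only.

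The label was checked against 6 markers. *Flt3* had a UMI in 64.3% of cDCs (95% interval 56.7 to 71.5), against 3.92% of monocyte-derived DCs (Mo-DCs), 7.46% of macrophages and 0 of 243 naive T cells, which allows a share of up to 1.51%. Median depth was 6544 UMIs in cDCs, 2310 in Mo-DCs, 6606 in macrophages and 2764 in naive T cells. With every cell thinned to 1500 UMIs the *Flt3* shares were 28.7%, 2.94%, 1.63% and 0.0%, in the same order. *Zbtb46* had a UMI in 33.3% of cDCs and 4.43% of macrophages, *Cd209a* in 37.4% and 12.4%, *Fscn1* in 19.9% and 2.10%, *Clec9a* in 15.8% and 2.10%, and *Xcr1* in 8.77% and 2.56%. *Clec9a* had a UMI in 3.43% of Mo-DCs. After thinning to 1500 UMIs its shares were 4.68% in cDCs and 1.96% in Mo-DCs, so these types were closer for this gene. In naive T cells, which should lack these genes, the highest of the 6 shares was 0.823%. At least 1 of the 6 markers was seen in 149 cDCs (87.1%), at least 2 in 104 (60.8%), and none in 22 (12.9%).

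Among the 14 annotated cell types, cDCs had the highest mean level of each of the 6 label markers. *Zbtb46* averaged 72.4 CPM (UMI counts scaled to 1 common total per cell) in cDCs, 9.15 CPM in macrophages and 9.39 CPM in Mo-DCs. The next highest type for *Zbtb46* was natural killer cells at 43.0 CPM. *Wdfy4*, needed for cross-presentation, averaged 194 CPM in cDCs, and the next highest type was B cells at 104 CPM. *Cd74*, the invariant chain that escorts MHC class II, averaged 12700 CPM in cDCs, 11930 CPM in macrophages and 4411 CPM in Mo-DCs. The class II chain gene *H2-Ab1* averaged 5689, 5376 and 2044 CPM in the same types, so cDCs and macrophages were close in class II level and Mo-DCs were lower. *Csf2rb*, the shared signalling chain of the receptors for GM-CSF, IL-3 and IL-5, averaged 780 CPM in cDCs and 641 CPM in monocytes. These levels are descriptions, because the annotation was made from the same cells.

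Clustering the 171 cells on their own gave 5 clusters. The levels below describe what the clustering used and carry no test.

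**Figure D1:**
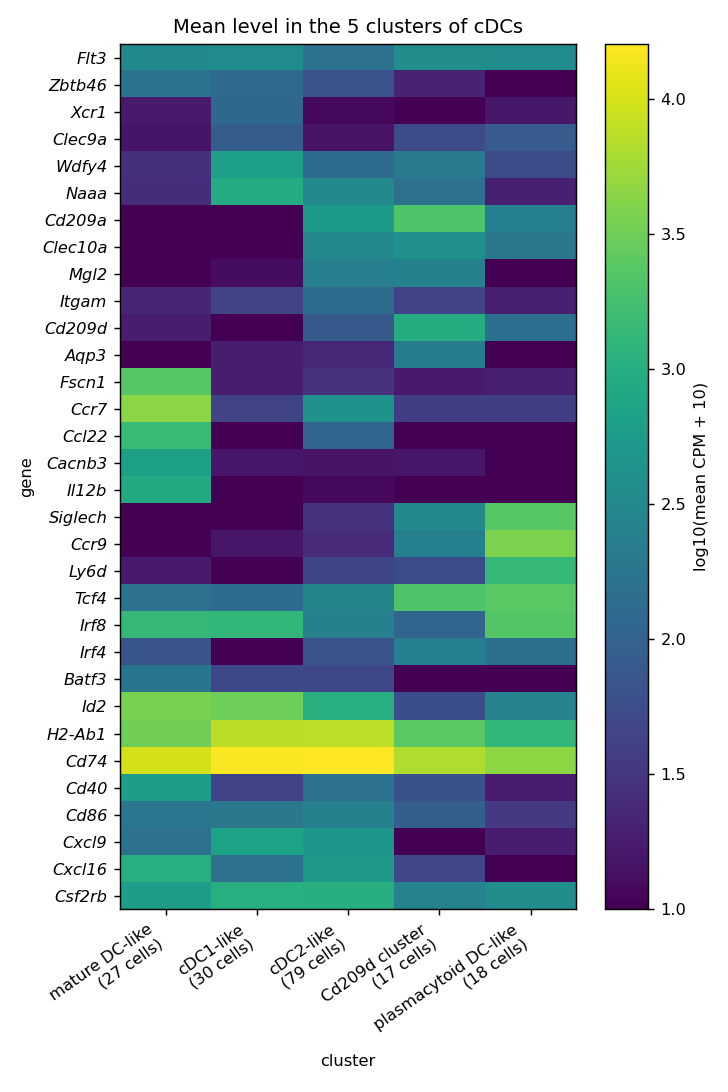
Mean level of 32 genes (rows) in the 5 clusters of cDCs (columns, with their numbers of cells), as log10(mean CPM + 10), with lighter colours for higher levels. *Fscn1*, *Ccr7* and *Ccl22* are highest in the mature DC-like column, *Wdfy4* and *Naaa* in the cDC1-like column, *Cd209a* and *Cd209d* in the Cd209d column, and *Siglech* and *Ccr9* in the plasmacytoid DC-like column.

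A mature DC-like cluster of 27 cells had all 14 mature DC markers at a higher level than the other cDCs. *Fscn1* averaged 2362 CPM there against 14.0 CPM in the other cDCs, and 96.8% of the *Fscn1* UMIs of cDCs lay in it. *Ccr7* averaged 4461 CPM and *Ccl22*, a chemokine that attracts CCR4-bearing T cells, 1483 CPM. *Il12b*, the p40 chain of IL-12 and IL-23, averaged 891 CPM and had a UMI in 40.7% of these cells against 0.694% of the others. The costimulatory gene *Cd40* averaged 594 CPM, the inhibitory ligand *Cd274* 632 CPM and *Il4i1*, an amino acid oxidase, 568 CPM in this cluster.

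A cDC1-like cluster of 30 cells was led by *Rab7b*, *Itga1*, *Ppt1* and *Xcr1*, and 7 of 12 cDC1 markers were higher there. *Naaa*, a lysosomal hydrolase, averaged 924 CPM and *Wdfy4* 632 CPM, each with a UMI in 93.3% of the cells. *Xcr1* averaged 110 CPM but had a UMI in only 36.7% of the cells. *Cxcl9*, an interferon-induced chemokine for CXCR3-bearing T cells, averaged 713 CPM, the highest of the 5 clusters, and *H2-Ab1* 7480 CPM.

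The largest cluster, cDC2-like, held 79 cells and was named from *Itgam*, *Clec10a*, *Mgl2* and *Zeb2*. None of these stood among its 10 leading genes, which were headed by *Raph1*, *Cxcl2*, *Ccl9* and *Pxdc1*. *Flt3* averaged 148 CPM there, the lowest of the 5 clusters, and had a UMI in 44.3% of the cells. *Cd74* averaged 15920 CPM and *H2-Aa* 8240 CPM, the highest of the clusters. Of the 79 cells, 28 carried markers of more than 1 type and 8 were among the 6% of all cells with the highest doublet scores. In a finer clustering of the cDCs (resolution 1.0), 37 cells met the cDC2-like rule. There 22 cells, led by *Cd79a* and *Cxcl2*, met the rule for the B cell list, and clusters of 24 and 16 cells met the mature DC rule. A cluster of 24 cells led by *Aqp3* and *Cd209d* met no rule.

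A further 17 cells were led by *Cd209d*, *Apod*, *Aqp3*, *Pi16* and *Cd200r1*, and are called the Cd209d cluster. They met the marker rule for cDC2-like with 4 genes, *Cd209a*, *Irf4*, *Clec10a* and *Mgl2*, none of them among the 10 leading genes, and also met it for the monocyte list with 3, *Ly6c2*, *Plac8* and *Ccr2*. Values given below for cDC2-like cells are over these 17 and the 79 cells together, unless the 79-cell cluster is named. *Cd209d*, a C-type lectin of the DC-SIGN family, averaged 959 CPM and *Cd209a* 2055 CPM in them. *Flt3* averaged 376 CPM but *Zbtb46* only 10.2 CPM, and the monocyte genes *Ly6c2* and *Plac8* averaged 672 CPM and 2307 CPM. *Tcf4*, the transcription factor that specifies plasmacytoid DCs, averaged 2065 CPM and *Siglech* 310 CPM in them. Their class II level was low, with *H2-Ab1* at 2385 CPM against 7553 CPM in the 79-cell cluster.

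The remaining 18 cells went against the label. They carried all 6 plasmacytoid DC markers, with *Siglech* at 2303 CPM, *Ccr9* at 3689 CPM and *Ly6d* at 1341 CPM, and are called plasmacytoid DC-like. *Flt3* averaged 354 CPM in them, *Tcf4* 2384 CPM and *Irf8* 2210 CPM, while *Zbtb46* had 0 UMIs. *H2-Ab1* averaged 1319 CPM, the lowest of the 5 clusters.

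Within the 79-cell cluster, 3 cells, all of IL-33- heart 4, carried at least 2 markers of mast cells or basophils. They held 51 of the 51 *Cpa3* UMIs, 10 of the 10 *Mcpt8* UMIs and 0 *Flt3* and *Zbtb46* UMIs of the cDCs. Values for cDC2-like cells and for the 79-cell cluster include these 3 cells. These 3 cells also held 31 of the 35 UMIs of *Il1rl1*, the receptor for IL-33, and the other 4 came from IL-33+ heart 3. *Il33* itself had 0 UMIs in the 171 cDCs. For several genes that these cells or the plasmacytoid DC-like cells carry, the value without both is given beside the result.

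The share of cDCs among all cells was 4.39%, 2.61% and 2.64% in IL-33+ hearts and 5.74%, 3.17% and 4.65% in IL-33- hearts. The groups overlapped. The means were 3.21% ± 1.02 (SD, n = 3) and 4.52% ± 1.29 (SD, n = 3), a difference of -1.31 percentage points (exact permutation test over hearts, two-sided, p = 0.2). With 3 hearts against 3 the smallest p this test can give is 0.1. Of cells annotated as monocytes, macrophages, cDCs or Mo-DCs, cDCs made up 17.1% ± 6.58 in IL-33+ and 25.1% ± 4.13 in IL-33- hearts (exact permutation p = 0.2).

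**Figure D2:**
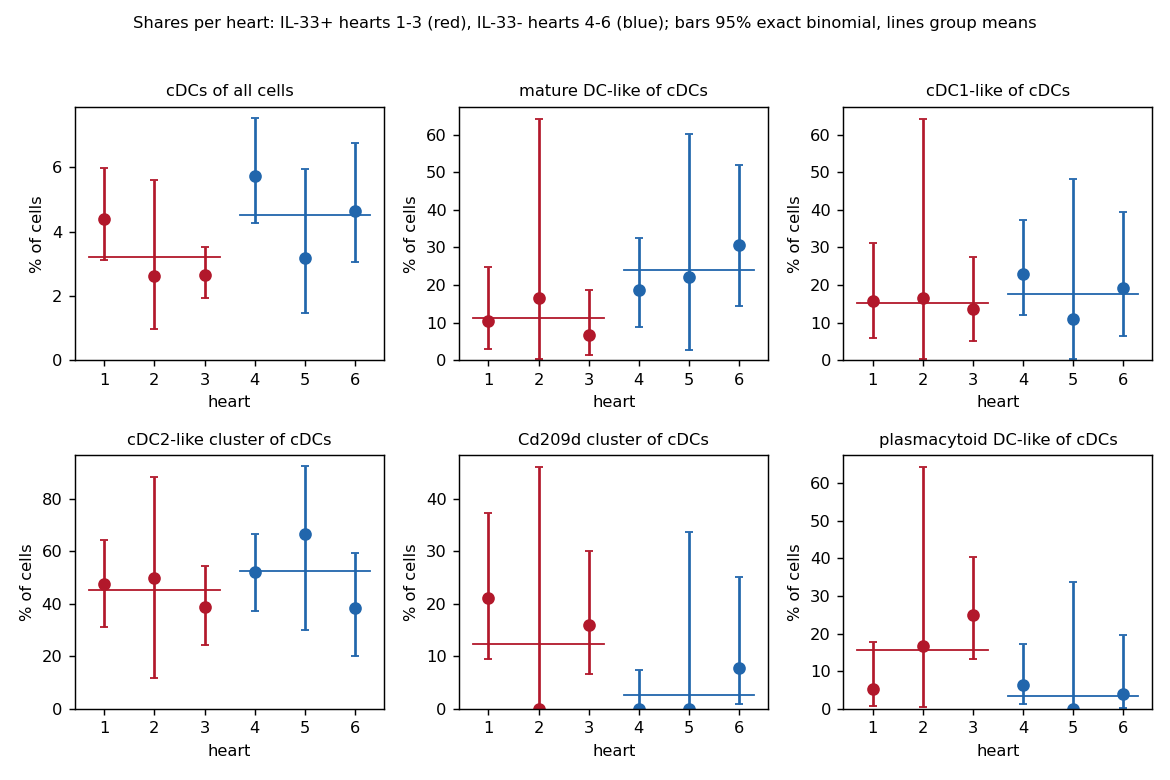
Share of cells in each heart (IL-33+ hearts 1 to 3 in red, IL-33- hearts 4 to 6 in blue), in %, for cDCs among all cells and for the 5 clusters among cDCs, where the panel titled cDC2-like cluster shows the 79-cell cluster alone. Points are hearts, bars exact binomial 95% intervals and lines group means, and the mature DC-like panel is the one in which the 3 IL-33- hearts, at 18.8% to 30.8%, all lie above the 3 IL-33+ hearts, at 6.82% to 16.7%.

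Mature DC-like cells made up 10.5%, 16.7% and 6.82% of cDCs in IL-33+ hearts (4 of 38, 1 of 6 and 3 of 44 cells). In IL-33- hearts they made up 18.8%, 22.2% and 30.8% (9 of 48, 2 of 9 and 8 of 26 cells). The groups did not overlap, with means of 11.3% ± 4.97 and 23.9% ± 6.19 (SD, n = 3 each), and the exact permutation p was 0.1, the smallest possible. The binomial intervals of single hearts were wide, from 0.421% to 64.1% in heart 2 for example. The groups overlapped, with p = 0.2 by the exact permutation test, when cells were assigned by marker scores, when clusters were cut at a resolution of 1.0, when plasmacytoid DC-like cells left the denominator, and when cells with markers of more than 1 type were removed. Means differed in the same direction in each of these.

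The cDC1-like share was 15.4% ± 1.56 in IL-33+ and 17.8% ± 6.04 in IL-33- hearts (exact permutation p = 0.5), and both cDC2-like clusters together made up 57.7% ± 9.60 and 55.0% ± 10.6 (exact permutation p = 0.7). The groups overlapped in both. With cells assigned by marker scores the cDC2-like shares were 53.8% ± 6.56 and 38.9% ± 5.05, without overlap (exact permutation p = 0.1), and at a resolution of 1.0 they were 17.2% ± 6.18 and 32.0% ± 11.9, so their direction depended on how cells were assigned. The 79-cell cluster alone made up 45.3% ± 5.95 and 52.4% ± 14.1 (exact permutation p = 0.5), with overlap. The Cd209d cluster made up 21.1%, 0.0% and 15.9% of cDCs in IL-33+ hearts and 0.0%, 0.0% and 7.69% in IL-33- hearts (exact permutation p = 0.4). Of its 17 cells, 15 came from hearts 1 and 3. Plasmacytoid DC-like cells made up 5.26%, 16.7% and 25% in IL-33+ hearts and 6.25%, 0.0% and 3.85% in IL-33- hearts (means 15.6% ± 9.91 and 3.37% ± 3.15, exact permutation p = 0.2), with overlap, and 11 of the 18 cells came from heart 3.

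Gene levels were compared between grafts on the mean CPM over the cDCs of each heart, with limma on log2(mean CPM + 10). A log2 fold is IL-33+ over IL-33- on that scale, which understates the change of low genes. Of 7949 genes tested, 0 passed a Benjamini-Hochberg adjusted p of 0.05 (0.0%), and the smallest adjusted p was 0.122. At an unadjusted p of 0.05 or less there were 540 genes, 309 higher (3.89%) and 231 lower (2.91%) in IL-33+ grafts. The 3 hearts of each group did not overlap for 584 higher genes (7.35%) and 405 lower genes (5.09%). A test with voom weights on the recovered UMIs called 0 genes, with 584 at an unadjusted p of 0.05 or less. So no gene below is called changed, and the p given with a gene is limma's Benjamini-Hochberg adjusted p over all genes tested. Without the filter on low counts 20 genes passed the adjusted threshold, and 48 passed when hearts were weighted by their number of cDCs, with 15 genes in both.

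Antigen presentation on MHC class II was read from 14 genes, all tested. A log2 fold above 0 was seen in 1 of them. At an unadjusted p of 0.05 or less 6 were lower and 0 higher, against 2.91% and 3.89% of all genes tested. Of the 14 genes, 4 were lower without overlap of the hearts, against 5.09% of all genes tested. The median log2 fold was -0.55, against 0.06 over all genes tested. *H2-Aa*, the class II alpha chain (chr17:34282744-34287823), stood at 6399, 3877 and 5208 CPM in IL-33+ hearts and 6999, 9436 and 7934 CPM in IL-33- hearts. The hearts did not overlap, and the log2 fold was -0.67 ± 0.16 (SE, adjusted p = 0.295). *H2-Ab1*, the gene that differs in Bm12, stood at 5554, 3573 and 4781 CPM and at 5771, 8160 and 6907 CPM, a log2 fold of -0.59 ± 0.16 (SE, adjusted p = 0.370). The table has 1 value for the gene, so donor and recipient alleles cannot be told apart. *H2-Eb1*, a second beta chain (chr17:34305867-34316674), gave -0.72 ± 0.17 (SE, adjusted p = 0.275), with means of 2679 ± 603 and 4377 ± 682 CPM (SD, n = 3 each).

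*Cd74* averaged 10950 ± 1422 CPM in IL-33+ and 15650 ± 3414 CPM in IL-33- hearts (SD, n = 3 each), a log2 fold of -0.50 ± 0.14 (SE, adjusted p = 0.405). In all 4 genes the highest IL-33+ heart was heart 1, which lay just under the lowest IL-33- heart, heart 4. Within the cDC2-like cells alone, the log2 folds of *H2-Aa*, *H2-Ab1*, *H2-Eb1* and *Cd74* were -0.69, -0.58, -0.57 and -0.47. These cells include the Cd209d cluster, which was low in class II and came mostly from IL-33+ hearts. In the 79-cell cluster alone the values were smaller in size, at -0.55, -0.43, -0.40 and -0.33, in the same order. Without the mature DC-like cells they were -0.69, -0.66, -0.68 and -0.53. The log2 fold of *H2-Aa* in cDCs less that in macrophages of the same hearts was -0.73 ± 0.51 (SE, adjusted p = 0.822). Over all genes, 0 of 7949 (0.0%) differed between cDCs and macrophages in their graft effect at an adjusted p of 0.05, with 413 at an unadjusted p of 0.05 or less and a smallest adjusted p of 0.821.

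The class I pathway, read from 13 genes, had 5 lower and 0 higher at an unadjusted p of 0.05 or less and a median log2 fold of -0.42. Over all genes tested, 2.91% were lower and 3.89% higher at that p. The 13 genes summed to 19850 CPM in the mature DC-like cluster and to 8723 to 12270 CPM in the other clusters. The part of the mature DC-like share in the values of this list was not tested. *Tap2*, a chain of the peptide transporter (chr17:34203527-34216321), stood at 112, 140 and 164 CPM in IL-33+ hearts and 277, 445 and 250 CPM in IL-33- hearts. The hearts did not overlap, and the log2 fold was -1.14 ± 0.30 (SE, adjusted p = 0.341). *H2-K1*, a classical class I heavy chain, averaged 2481 ± 170 and 3350 ± 20.3 CPM (SD, n = 3 each), a log2 fold of -0.43 ± 0.14 (SE, adjusted p = 0.514). *Tapbp*, which bridges the transporter and class I, gave -0.44 (adjusted p = 0.717) without overlap. The heavy chain *H2-D1*, whose sequence is near that of *H2-K1* so that reads may be split uncertainly between them, gave -0.20 (adjusted p = 0.869). *B2m* gave -0.42 with overlap, or -0.22 without the mature DC-like cells.

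**Figure D3:**
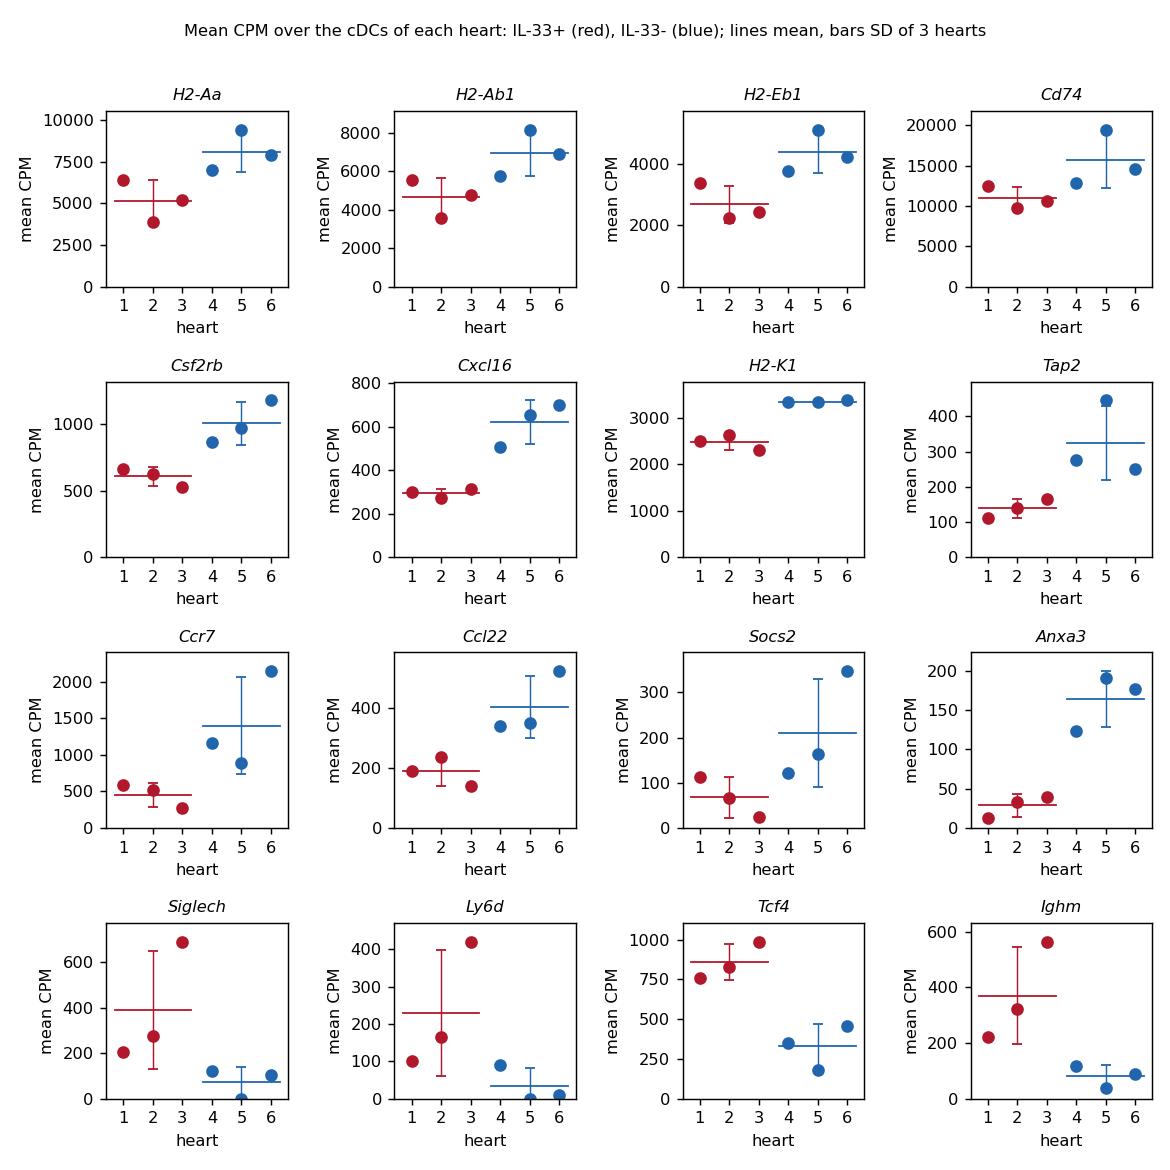
Mean CPM over the cDCs of each heart (hearts 1 to 3 IL-33+ in red, hearts 4 to 6 IL-33- in blue) for 16 genes, on linear axes that start at 0, with lines for group means and bars for the SD of 3 hearts. The panels show a choice of genes in which the hearts of the groups do not overlap, so their agreement is no result. IL-33+ hearts are lower in the upper 3 rows and higher in the bottom row. Over all genes tested, 7.35% were higher and 5.09% lower without overlap, and none of the 16 genes passed the adjusted threshold.

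Genes of DC maturation were lower in IL-33+ hearts by count and median. Of 14 mature DC genes, 6 were lower and 0 higher at an unadjusted p of 0.05 or less, against 2.91% and 3.89% of all genes tested. Without overlap 5 were lower, against 5.09% of all genes tested, and the median log2 fold was -0.69. The summed level of the 14 genes was 3068, 3960 and 2408 CPM in IL-33+ hearts and 4541, 5348 and 6327 CPM in IL-33- hearts. *Ccr7* (chr11:99144196-99155077) stood at 586, 514 and 272 CPM in IL-33+ hearts and 1164, 886 and 2144 CPM in IL-33- hearts. The hearts did not overlap, heart 6 was highest, and the log2 fold was -1.56 ± 0.30 (SE, adjusted p = 0.122). *Socs2*, a feedback inhibitor of cytokine signalling (chr10:95385362-95417180), stood at 113, 67.0 and 23.8 CPM and at 121, 164 and 347 CPM, a log2 fold of -1.55 ± 0.47 (SE, adjusted p = 0.499). *Serpinb6b* gave -0.93 (adjusted p = 0.564) and *Marcksl1* -0.68 (adjusted p = 0.624), both without overlap.

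*Fscn1* gave a log2 fold of -0.76 (adjusted p = 0.726), but heart 2, at 637 CPM, was above all IL-33- hearts. Heart 2 rests on 6 cells, of which 1 was mature DC-like. *Cacnb3*, at -0.40 (adjusted p = 0.917), and *Il12b*, at -0.01 (adjusted p = 0.9997), also overlapped, although both were nearly confined to the mature DC-like cluster (94.0% and 99.5% of their UMIs). The mature DC-like cluster was defined by these genes, so its larger share in IL-33- hearts and the levels of *Ccr7* or *Socs2* are not independent of each other. Without the mature DC-like cells the log2 fold of *Ccr7* was -1.18, that of *Socs2* -1.23, that of *Marcksl1* -0.22 and that of *Ccl22* -0.51. Within cDC2-like cells *Ccr7* gave -1.06, and in the 79-cell cluster -0.87, while *Marcksl1* turned to 0.12 there. These sets may still hold mature cells, which was not tested. *Ccr7* had a UMI in 39.2% of the cells of the 79-cell cluster, which held 20.3% of its UMIs. At a resolution of 1.0 a second mature DC-like cluster, of 16 cells, had *Ccr7*, *Ccl22*, *Il4i1* and *Marcksl1* higher.

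Of 15 chemokine genes, all tested, 3 were lower and 0 higher at an unadjusted p of 0.05 or less, each without overlap. Over all genes tested, 2.91% were lower and 3.89% higher at that p. The median log2 fold of the list was -0.84. *Cxcl16*, a membrane-bound chemokine for CXCR6-bearing T cells (chr11:70453983-70459984), stood at 299, 274 and 311 CPM in IL-33+ hearts and 507, 655 and 697 CPM in IL-33- hearts. The IL-33+ hearts lay close together, and the log2 fold was -1.04 ± 0.23 (SE, adjusted p = 0.221). It was -0.96 without the mature DC-like cells, which held 38.5% of the *Cxcl16* UMIs. Within cDC2-like cells it was -0.70, and in the 79-cell cluster alone -0.42 ± 0.31 (SE). The part of cluster shares in the *Cxcl16* value was not tested. *Ccl22* (chr8:94745590-94751699) stood at 192, 236 and 140 CPM and at 341, 349 and 524 CPM, a log2 fold of -1.06 ± 0.28 (SE, adjusted p = 0.341). *Ccl5*, a T cell chemoattractant, averaged 191 ± 185 and 483 ± 169 CPM (SD, n = 3 each) and was at 0 in heart 2, where few cells were sampled. Its log2 fold of -2.35 (adjusted p = 0.625) was -0.74 without that heart. *Cxcl9*, at 0.01 (adjusted p = 0.9997), and *Ccl9*, at -0.84 (adjusted p = 0.869), overlapped.

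Receptors for growth factors and IL-33 or type 2 cytokines were read next. *Csf2rb* (chr15:78325752-78353847) stood at 666, 629 and 528 CPM in IL-33+ hearts and 866, 973 and 1178 CPM in IL-33- hearts, without overlap, and its log2 fold was -0.71 ± 0.20 (SE, adjusted p = 0.372). Its value was -0.75 within cDC2-like cells and -0.60 in the 79-cell cluster. *Flt3* itself stood at 297, 361 and 252 CPM and at 224, 222 and 246 CPM, a log2 fold of 0.36 ± 0.26 (SE, adjusted p = 0.838). The 8 growth factor receptor genes had a median log2 fold of -0.31. At an unadjusted p of 0.05 or less 3 of them were lower (2.91% of all genes tested). The list of receptors for IL-33 and type 2 cytokines holds 7 genes, of which 5 could be tested and 0 reached an unadjusted p of 0.05. *Crlf2*, the receptor for TSLP, averaged 55.4 ± 15.5 and 67.6 ± 23.3 CPM, and *Il4ra* 271 ± 106 and 187 ± 22.1 CPM (SD, n = 3 each), both with overlap. *Il1rl1* was below the filter.

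Among 13 interferon-stimulated genes tested, 2 were lower and 2 higher at an unadjusted p of 0.05 or less, so the list had no single direction. The shares over all genes tested were 2.91% and 3.89%. *Bst2*, a membrane protein that plasmacytoid DCs express at a high level, was higher in IL-33+ hearts, at 560, 658 and 1033 CPM and at 389, 273 and 388 CPM, a log2 fold of 1.05 ± 0.25 (SE, adjusted p = 0.295). Without the plasmacytoid DC-like and mast cell or basophil cells, *Bst2* gave 0.38.

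Lineage markers were counted in the same way. Over all genes tested, 2.91% were lower and 3.89% higher at an unadjusted p of 0.05 or less. The 6 markers shared by cDCs had a median log2 fold of -0.40, and 0 of them reached an unadjusted p of 0.05. Of 10 cDC1 markers tested, 2 were lower at an unadjusted p of 0.05 or less and 0 higher. They were *Batf3*, the cDC1 transcription factor, at -1.87 (adjusted p = 0.511), with 56.7% of its UMIs in the mature DC-like cluster and a log2 fold of -1.23 without that cluster, and *Naaa* at -0.55 (adjusted p = 0.720). *Xcr1* and *Clec9a* gave -0.54 and -0.71 with overlap and at most 38 UMIs in all. Of 8 cDC2 markers tested, 2 were higher and 1 lower. *Sirpa* averaged 243 ± 71.5 and 126 ± 19.5 CPM (SD, n = 3 each), a log2 fold of 0.87 (adjusted p = 0.622). The plasmacytoid DC-like cluster held 20.8% of its UMIs, and its log2 fold was 0.52 without the plasmacytoid DC-like and mast cell or basophil cells and 0.48 within cDC2-like cells. *Cd209a*, at 673, 69.8 and 476 CPM and at 222, 736 and 707 CPM, showed no separation. *Zbtb46* averaged 62.1 ± 20.9 and 96.2 ± 7.34 CPM (SD, n = 3 each), without overlap, but its log2 fold of -0.59 had adjusted p = 0.827.

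Of the 234 genes that were higher by at least 2-fold with an unadjusted p of 0.05 or less (2.94% of genes tested), 137 (58.5%) had their highest mean in the plasmacytoid DC-like cluster, against 26.4% of all genes tested. The Cd209d cluster was highest for 57 (24.4%), near its 24.0% of all genes tested. Of the 131 lower genes (1.65%), 78 (59.5%) had their highest mean in the mature DC-like cluster, against 19.7% of all genes tested. These are descriptions, since cluster shares and gene levels come from the same cells.

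At an unadjusted p of 0.05 or less, 4 of the 6 plasmacytoid DC markers were higher (3.89% of all genes) and 0 lower (2.91%). Their summed level ranged from 698 to 2056 CPM in IL-33+ hearts and from 14.6 to 590 CPM in IL-33- hearts. *Siglech*, a sialic acid-binding receptor (chr7:55768178-55778925), stood at 205, 276 and 688 CPM and at 121, 0.0 and 104 CPM. Heart 3 was highest, the hearts did not overlap, and the log2 fold was 2.72 ± 0.71 (SE, adjusted p = 0.341). Without the plasmacytoid DC-like and mast cell or basophil cells it was 1.45. *Ly6d* gave 2.89 (adjusted p = 0.275), or 1.48 without those cells. *Ccr9*, the leading gene of the cluster, stood at 297, 1409 and 689 CPM and at 263, 14.6 and 340 CPM, with overlap. Its log2 fold was 2.34 (adjusted p = 0.490), or 1.15 without those cells. It turned to -0.34 without cells with markers of more than 1 type, which include 7 of the 18 plasmacytoid DC-like cells.

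*Tcf4* stood at 761, 831 and 986 CPM in IL-33+ hearts and 353, 182 and 456 CPM in IL-33- hearts. The hearts did not overlap and the log2 fold was 1.44 ± 0.28 (SE, adjusted p = 0.122). It moved less than *Siglech* on removal of the plasmacytoid DC-like and mast cell or basophil cells, to 1.27, and was 1.25 within cDC2-like cells, of which the Cd209d cluster is part and holds 35.5% of all *Tcf4* UMIs. In the 79-cell cluster it was 1.03 ± 0.44 (SE). *Bcl11a*, a transcription factor of the same lineage, gave 1.72 (adjusted p = 0.341) and gave 0.92 without those cells.

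*Ighm*, the IgM heavy chain (chr12:113418558-113422730), stood at 223, 324 and 563 CPM in IL-33+ hearts and 117, 37.2 and 90.5 CPM in IL-33- hearts. Its log2 fold was 2.07 ± 0.40 (SE, adjusted p = 0.122), without overlap, and 42.2% of its UMIs lay in the plasmacytoid DC-like cluster. The list of 7 B cell genes had 5 tested and 2 higher at an unadjusted p of 0.05 or less (3.89% of all genes tested). Its summed level was 262 to 906 CPM in IL-33+ hearts and 64.6 to 285 CPM in IL-33- hearts. The part of B cell RNA in the *Ighm* value was not tested.

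Other genes with the largest folds were low and rested on few cells. *Anxa3*, an annexin (chr5:96793339-96845966), stood at 12.6, 33.5 and 40.1 CPM in IL-33+ hearts and 123, 191 and 177 CPM in IL-33- hearts, a log2 fold of -2.22 ± 0.43 (SE, adjusted p = 0.122). The hearts did not overlap, and 92.5% of its 106 UMIs lay in the mature DC-like cluster. *Mreg* (-2.63), *Tm4sf5* (-2.64), *Mcemp1* (-2.32), *Adgrg6* (-2.13), *H2-Eb2* (-2.05) and *Gramd3* (-1.93) were also lower without overlap, each with 44 to 90 UMIs in all and 0 in heart 2. *Plat*, tissue plasminogen activator, was higher at 2.45 (adjusted p = 0.362), with 85.2% of its 54 UMIs in the mature DC-like cluster and 162 CPM in heart 3, so it ran against the direction of the maturation genes. *Trp53inp1* (2.29), *Fam214a* (2.18), *Rpgrip1* (2.13) and *Tent5a* (2.03) were higher without overlap and were at 0 in heart 5. The plasmacytoid DC-like cluster held 37.1% of the *Trp53inp1*, 61.3% of the *Fam214a* and 81.1% of the *Rpgrip1* UMIs. Without the plasmacytoid DC-like and mast cell or basophil cells the log2 folds were 0.99 for *Trp53inp1*, 0.95 for *Fam214a* and 2.24 for *Tent5a*, and *Rpgrip1* was below the filter.

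**Figure D4:**
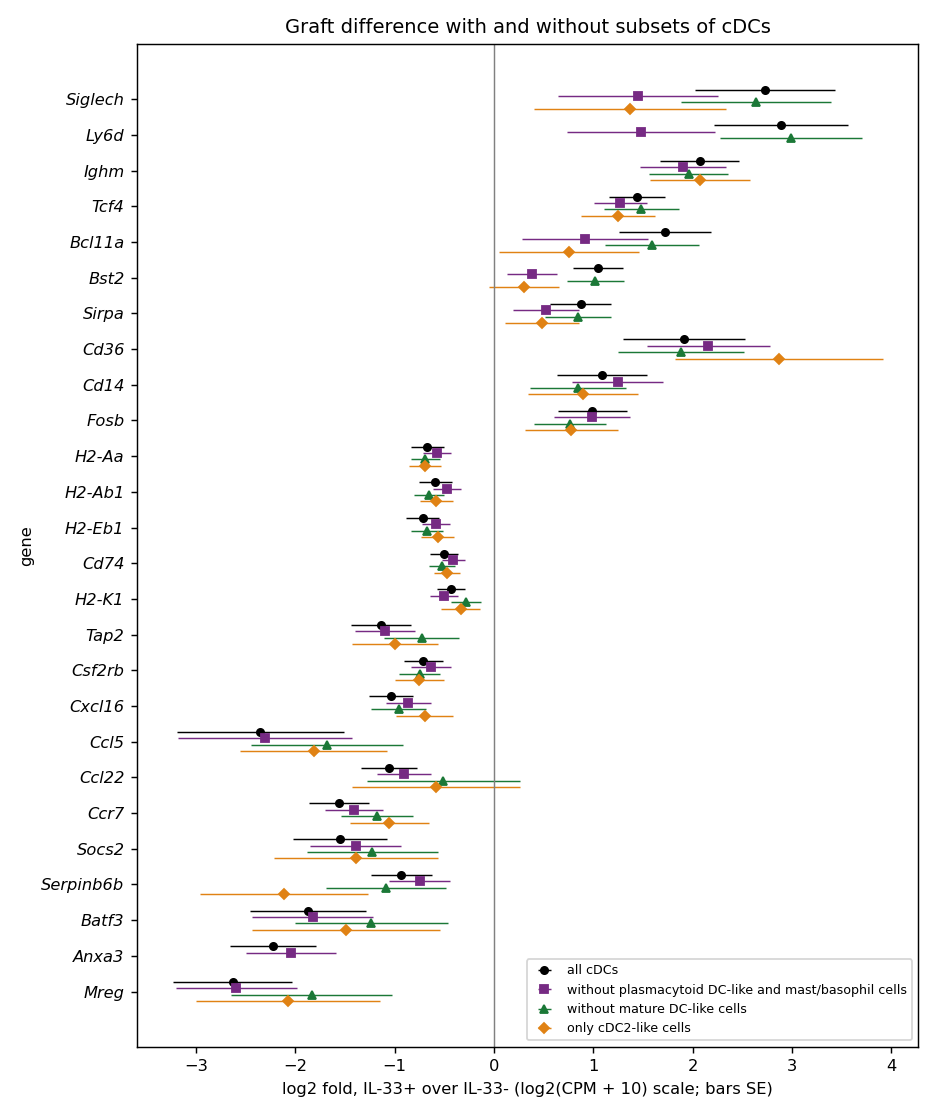
Log2 fold, IL-33+ over IL-33- on the log2(CPM + 10) scale, with SE bars, of 26 genes over all cDCs (black), without plasmacytoid DC-like and mast cell or basophil cells (purple), without mature DC-like cells (green) and in cDC2-like cells alone (orange), where a missing point means that the gene did not pass the filter in those cells or was not fitted in them. *Siglech*, *Ly6d* and *Bst2* move toward 0 in purple, *Ccl22* in green, while *H2-Aa*, *H2-Ab1*, *H2-Eb1* and *Cd74* keep values between -0.41 and -0.72 in all 4 sets.

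The remaining lists showed few genes at an unadjusted p of 0.05 or less (over all genes tested, 3.89% were higher and 2.91% lower). Among 17 DC transcription factors, 3 were higher and 1 lower, and the median log2 fold was 0.46, with *Tcf4*, *Bcl11a* and *Batf3* given above and *Irf4*, a factor of cDC2, at 1.91 with overlap. Among 8 chemokine and migration receptors tested, *Ccr7* was the 1 below that threshold, and among 7 NF-kB feedback genes there were 0. Of 12 costimulatory and inhibitory ligand genes tested there were 0 in either direction, with a median log2 fold of -0.26. *Cd86*, which engages CD28, stood at 174, 125 and 141 CPM in IL-33+ hearts and 228, 176 and 175 CPM in IL-33- hearts, without overlap and with a log2 fold of -0.38 (adjusted p = 0.869). Of 7 cytokine genes tested there were also 0, and *Il1b*, at -0.16 (adjusted p = 0.946), and *Tgfb1*, at 0.13 (adjusted p = 0.955), overlapped.

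The 12 immediate early genes had a median log2 fold of 0.22. At an unadjusted p of 0.05 or less 3 of them were higher (3.89% of all genes tested). *Fosb* stood at 145, 223 and 262 CPM in IL-33+ hearts and 143, 88.0 and 74.1 CPM in IL-33- hearts, a log2 fold of 0.99 (adjusted p = 0.621). Such genes are known to respond to tissue dissociation, and the part of handling in these values was not tested. Of 13 C-type lectin and uptake receptor genes tested, 1 was higher at an unadjusted p of 0.05 or less, the fatty acid receptor *Cd36*, at 63.2, 338 and 43.3 CPM and at 27.7, 11.1 and 22.2 CPM, a log2 fold of 1.91 (adjusted p = 0.528). Of 5 Toll-like receptor and adaptor genes tested, 1 was higher, *Cd14* at 1.08 (adjusted p = 0.712), and of 9 cell cycle genes tested, 1 was higher, *Stmn1* at 2.16 (adjusted p = 0.564) with overlap.

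Summed markers of most other cell types overlapped between the groups. The macrophage markers summed to 145 to 475 CPM in IL-33+ and 168 to 239 CPM in IL-33- hearts, natural killer cell markers 25.2 to 451 and 149 to 542 CPM, and fibroblast markers 74.0 to 213 and 76.1 to 130 CPM. Monocyte markers, which some cDC clusters share, summed to 891 to 2284 and 961 to 1307 CPM, T cell markers to 34.7 to 111 and 17.4 to 61.5 CPM, and endothelial markers to 88.6 to 258 and 54.8 to 162 CPM. Erythrocyte genes were the most uneven, at 86.4 to 3789 CPM and 114 to 1513 CPM. Neutrophil markers were at most 25.2 CPM outside heart 4, where they reached 763 CPM. *Myh6*, which defines cardiomyocytes, and *Fcnb*, of bone marrow monocytes, had 0 UMIs. Cells with markers of more than 1 type numbered 57 of 171, and without them 250 genes passed 2-fold and an unadjusted p of 0.05 or less, against 365 over all cDCs.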

How the data were processed

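Per the labels and methods, the authors dissociated grafts, tagged cells by heart, made 10x 3' libraries, processed reads with Cell Ranger and analysed them in Partek Flow (10.0.23.0425 in the submitters' processing notes) on mm10. The deposited table gives log2(CPM + 1) per cell for 22337 symbols, beside the authors' cell types, graft group and heart. These log2 values were turned back into CPM and into UMIs, and 99.94% of low values came out whole within 0.05. No cell was removed: Scrublet's own threshold marked 6 cells, so the top 6% of scores (266 cells) was left out in an alternative only. The authors had kept cells within limits on counts, genes detected and mitochondrial share, against doublets and poor cells, and totals in the table ran from 1500 to 14980 UMIs.

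CPM were averaged over the cDCs of each heart and fitted with limma 3.58.1 (R 4.3.3; lmFit and eBayes with trend) on log2(mean CPM + 10), keeping genes that had 10 or more UMIs in total and were seen in 3 or more hearts, with Benjamini-Hochberg adjustment over all genes tested. The contrast with macrophages used the difference of log2 values within a heart. Shares were compared by two-sided exact permutation over hearts (10 ways). The cDCs were clustered in scanpy 1.11.5 (2000 variable genes, 15 components, 10 neighbours, Leiden resolution 0.5, or 1.0 in an alternative), and a cluster was named when at least 3 markers of a list were 2-fold higher. The limma fit was tested on simulated hearts drawn from a common mean profile, a setting that leaves out clusters whose shares vary by heart. Coordinates are GENCODE vM21 on GRCm38, matched by symbol.

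The members, lists and tests were chosen with earlier results of these data known. Genes named are the label markers, the 8 largest folds in each direction (unadjusted p of 0.05 or less, no overlap, at least 30 UMIs), each list's 3 highest members and any member with unadjusted p of 0.05 or less and no overlap, the 5 leading genes of each cluster, *H2-Ab1*, *Il33* and *Il1rl1*. Other genes given by cluster, by cell type or for their p, such as *Il4i1*, *Cd40*, *Ly6c2* and *Stmn1*, were chosen after their values were seen. The hashtag library was not analysed here. Values of some genes of the lists are not reported here.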

Additional observations from a re-analysis of the deposited data

How the results depend on the processing

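With 3 hearts a group and 6 to 48 cDCs a heart, low genes and rare clusters are imprecise, and hearts 2 and 5 weigh as much as the others. No paired analysis was made because the sources used here give no pairing of hearts between the groups. Genes called numbered 0, but 20 without the low-count filter and 48 with weights by number of cDCs, and leaving out 1 heart gave 0 to 2 (*Grn* and *H2afz*, without IL-33+ heart 1). Genes past 2-fold and an unadjusted p of 0.05 or less numbered 365, but 57 with a pseudocount of 50 CPM, 221 in cDC2-like cells alone, 194 in the 79-cell cluster alone, and 217 (without heart 5) to 473 (without heart 1) on leaving out 1 heart; all other alternatives stayed within 1.5 times. The cDC1-like share difference of -2.39 points turned to 0.0906 by marker assignment and 1.45 without mixed cells, and ranged from -5.71 to 0.193 over left-out hearts. The cDC2-like difference of 2.69 points turned to -14.8 at a resolution of 1.0, where 37 rather than 96 cells met the rule for that name, and ranged from -2.70 to 8.54 over left-out hearts. The mature DC-like difference of -12.6 points kept its direction, from -15.2 to -9.15 over left-out hearts. The cause of these moves was not tested. Of 100 named genes tested, 35 changed sign in at least 1 of 20 alternatives; of the 41 with an unadjusted p of 0.05 or less and no overlap, 1 did (*Marcksl1*, 0.12 in the 79-cell cluster). Removal of plasmacytoid DC-like and mast cell or basophil cells, or of mature DC-like cells, and the fit of the 79-cell cluster were chosen after seeing the data.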

Other observations

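The clusters of cDCs differed in which chemokines and sensors they carried, as a description with no test and with genes chosen after their values were seen. *Ccl4*, a chemokine gene, averaged 1260 CPM in the plasmacytoid DC-like cluster, where 66.7% of cells had a UMI, and 11.3 CPM in the mature DC-like cluster. *Tlr7*, an endosomal sensor of single-stranded RNA, averaged 106 CPM in the plasmacytoid DC-like cluster with a UMI in 50% of cells, and had 0 UMIs in the mature DC-like and cDC1-like clusters. *Irf8* was high in the plasmacytoid DC-like (2210 CPM), mature DC-like (1352 CPM) and cDC1-like (1304 CPM) clusters and low in the Cd209d cluster (99.4 CPM), while *Irf4* was highest in the Cd209d cluster (229 CPM). *Id2*, which opposes the plasmacytoid fate, averaged 3636 CPM in the mature DC-like cluster and 48.8 CPM in the Cd209d cluster.

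The 15 genes that passed the adjusted threshold both without the low-count filter and with weights by number of cDCs included *Ccr7*, *Anxa3*, *Cxcl16*, *Tcf4*, *Ighm*, *Bst2* and *Siglech*. *Grn*, the progranulin gene, was among them and lies outside the rule for named genes. Its log2 fold was 1.33 ± 0.32 (SE), higher in IL-33+ hearts without overlap. *H2afz*, a histone variant gene, gave -1.19 ± 0.24 (SE), also without overlap. Both settings refit the same 6 hearts, so passing in both is not independent support. In the main fit 0 of 7949 genes passed the adjusted threshold, so neither gene is called changed.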
